A study of Mus musculus with 8 samples.

Results

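The chromatin remodelling and histone-modifying genes described here are 41 genes, chosen by symbol from the gene table of an RNA-seq experiment on mouse embryonic cortex. The rule itself uses only symbols, but the list was drawn up with earlier results of these data known. All 41 symbols were found among the 23284 listed genes, and all 41 passed the filter on low counts that left 14696 genes for testing. They comprise 5 genes of Polycomb repressive complex PRC2, 3 of PRC1, 3 DNA methyltransferases, 3 TET dioxygenases, 3 methyl-CpG-binding proteins, 10 subunits of the BAF and PBAF remodellers, 5 CHD remodellers, 4 histone deacetylases, 3 H3K9 methyltransferases and 2 histone demethylases.

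The experiment compared dorsal cortex of C57BL/6 embryos at E15.5 between 4 ErbB4+/+ libraries and 4 libraries labelled ErbB4-/-, to find genes that respond to the loss of ErbB4. ErbB4 is a receptor tyrosine kinase for neuregulins. The knockout is germline, so every cell of the embryo carries it, and a transgene under the α-MHC promoter restores ErbB4 in the heart only. The lines were bred as separate homozygous colonies, the labels do not say whether the embryos of a genotype came from separate litters, and p-values therefore measure only the spread between these libraries, which may in part be technical.

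Chromatin regulators set which genes a cell can transcribe. PRC2 methylates histone H3 at lysine K27 and PRC1 ubiquitinates histone H2A, both in repressed genes, while BAF and CHD complexes use ATP to move or evict nucleosomes and deacetylases and H3K9 methyltransferases close chromatin. In the developing cortex, neural progenitors and the neurons that they produce use different subunits of the same complexes, and mutations in several of these genes cause neurodevelopmental disorders. The transcripts were measured here, so levels of protein, activity of the complexes and histone marks were not part of the data.

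Promoter sequences are shown for the ATPase pair of BAF, Smarca2 and Smarca4, and for the methyltransferase pair of PRC2, Ezh1 and Ezh2. In each pair the transcripts stood on opposite sides of 0 in the comparison below, without passing its adjusted test. The same held for Chd3 and Chd4 (log2 fold changes 0.040 and -0.055) and for Smarcc2 and Smarcc1 (0.0020 and -0.062), which are not shown. Each line gives 300 bases 5′ to 3′ on the strand of the gene, 250 before the annotated start and 50 after it, from RefSeq on GRCm38.p6, with every CG dinucleotide in capitals.
Smarca2, chr19:26604910-26605209, plus strand: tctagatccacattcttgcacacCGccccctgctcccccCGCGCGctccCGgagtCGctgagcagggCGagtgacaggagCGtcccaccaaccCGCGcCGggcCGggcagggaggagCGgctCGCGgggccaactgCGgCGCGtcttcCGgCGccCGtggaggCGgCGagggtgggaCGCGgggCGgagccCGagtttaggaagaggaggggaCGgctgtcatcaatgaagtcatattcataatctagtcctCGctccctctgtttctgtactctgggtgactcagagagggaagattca
Smarca4, chr9:21615919-21616218, plus strand: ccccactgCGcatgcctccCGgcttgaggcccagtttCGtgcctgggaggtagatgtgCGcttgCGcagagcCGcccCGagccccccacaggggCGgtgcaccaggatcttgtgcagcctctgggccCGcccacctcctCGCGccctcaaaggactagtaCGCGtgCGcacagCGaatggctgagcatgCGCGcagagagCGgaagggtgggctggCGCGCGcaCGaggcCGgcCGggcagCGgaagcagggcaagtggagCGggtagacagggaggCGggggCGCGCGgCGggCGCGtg
Ezh1, chr11:101226414-101226713, minus strand: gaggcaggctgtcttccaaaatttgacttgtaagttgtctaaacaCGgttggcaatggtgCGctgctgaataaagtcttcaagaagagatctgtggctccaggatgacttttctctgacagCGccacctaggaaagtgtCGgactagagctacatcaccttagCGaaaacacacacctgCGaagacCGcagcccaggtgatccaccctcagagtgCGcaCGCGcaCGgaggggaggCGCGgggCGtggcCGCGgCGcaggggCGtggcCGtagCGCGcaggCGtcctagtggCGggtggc
Ezh2, chr6:47594981-47595280, minus strand: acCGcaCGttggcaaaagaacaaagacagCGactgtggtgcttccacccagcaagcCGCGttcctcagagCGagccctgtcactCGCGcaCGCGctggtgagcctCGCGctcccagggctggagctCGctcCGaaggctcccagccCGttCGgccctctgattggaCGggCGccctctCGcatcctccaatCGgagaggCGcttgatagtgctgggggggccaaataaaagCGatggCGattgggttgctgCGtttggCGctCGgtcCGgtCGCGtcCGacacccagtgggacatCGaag
These windows held 29, 33, 23 and 31 CG dinucleotides, respectively, against a median of 7 over the 27025 promoters of the same length in the table. A RefSeq promoter was found for 32 of the 41 genes, with the first listed start taken where a gene had several. Of these, 27 (84.4%) were CpG-rich, compared with 28.5% of all promoters. CpG-rich was defined as a GC content of at least 55% and a ratio of observed to expected CG of at least 0.65. The promoters of the table were not limited to genes that passed the filter on low counts, as the 41 genes did. The part of expression in this difference was not tested. The letters TTTCGCGC or TTTGGCGC, a form of the E2F site of cell cycle genes, were searched on both strands. They occurred in the promoter of Ezh2 only, 1 of 32 (3.12%), and in 0.833% of all promoters. A match of letters is a description of the window and not of binding.

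Reads were 50 nucleotides long, so a 50-base stretch of a transcript that also occurs elsewhere in the genome can make a read ambiguous. For each gene, every 50-base window of its longest coding transcript was searched in the mm9 genome outside the gene itself. For 24 of the 41 genes no such window was found, and for 5 genes more than 5% of the windows also occurred elsewhere. Examples are shown for 3 of these, chosen as the genes with a copy on another chromosome, each as the 50 bases of the transcript on the strand of the gene.
Hdac1, also at chr17:78890922-78890971 (mm9, plus strand): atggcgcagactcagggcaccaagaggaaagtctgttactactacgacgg
Bmi1, also at chrX:146657819-146657868 (mm9, minus strand): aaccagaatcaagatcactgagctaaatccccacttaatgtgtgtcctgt
Smarcc1, also at chr14:85158598-85158647 (mm9, minus strand): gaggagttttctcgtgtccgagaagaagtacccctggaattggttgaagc
The share was 76.4% for Hdac1, 19.3% for Bmi1, 8.44% for Setdb1, 8.05% for Dnmt3b and 5.38% for Smarcc1. It was at most 3.05% for the other genes. Most of the Hdac1 windows, 1467 of 1520, lay in a stretch on chromosome 17 from 78890879 to 78892881. How reads with several matches were counted is not given in the sources used here, so the level of Hdac1 is uncertain.

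Each library held between 28205703 and 48871480 counts, and the 41 genes drew between 109 (Dnmt3b) and 48281 (Chd3) counts per library. Levels are given as CPM, counts per 1000000 counts of the library after TMM normalization. Erbb4 itself stood at 8.99, 19.9, 25.3 and 19.2 CPM in ErbB4+/+ replicates 1 to 4 and at 20.9, 24.6, 20.7 and 23.5 CPM in the replicates labelled ErbB4-/-. It was thus not lower under the knockout label (log2 fold change 0.28 ± 0.23 (SE), edgeR adjusted p = 0.812, and 0.062 without ErbB4+/+ replicate 1). In that library the log2 difference of Erbb4 from the mean of the other 7 libraries was -1.28. The Erbb4 transcript has 12037 nucleotides, and the part of length in this difference was not tested. Which exons the allele removes is not given in the sources used here. The labels could therefore not be checked from counts per gene, and ErbB4-/- names the label in all that follows. Xist, which is transcribed from the inactive X chromosome, was at 983 to 1687 CPM in ErbB4+/+ replicates 1 to 3 and at 2.70 to 3.82 CPM in the other 5 libraries, and the Y-linked Ddx3y was at 0.257 to 0.495 CPM in those 3 and at 76.4 to 80.9 CPM in the 5. Genotype and sex therefore overlap to a large extent, and only ErbB4+/+ replicate 4 matches the libraries labelled ErbB4-/- in sex. Of the markers of dorsal cortex, Emx1 was at 62.2 to 79.9 CPM in the ErbB4+/+ libraries and at 59.6 to 67.5 CPM in those labelled ErbB4-/-, and Tbr1, a marker of deep-layer neurons, at 392 to 475 CPM and 375 to 418 CPM.

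The levels of the genes are compared per kilobase of the longest coding transcript, in CPM per kb, as mean ± SD over the 4 ErbB4+/+ libraries. They covered from 1.12 ± 0.236 for Dnmt3b to 161 ± 15.97 for Hdac2, with a median gene at 37.5 CPM per kb. Of the 41 genes, 8 were above 100 CPM per kb and 7 were below 10 CPM per kb. As a group they were abundant and long. Their median level was 185 CPM against 28.1 CPM over all 14696 tested genes, and 73.2% of them exceeded 100 CPM against 19.1% of all tested genes. Their median transcript length was 4934 nucleotides against 3035 over the 14448 tested genes with a length.

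**Figure D1:**
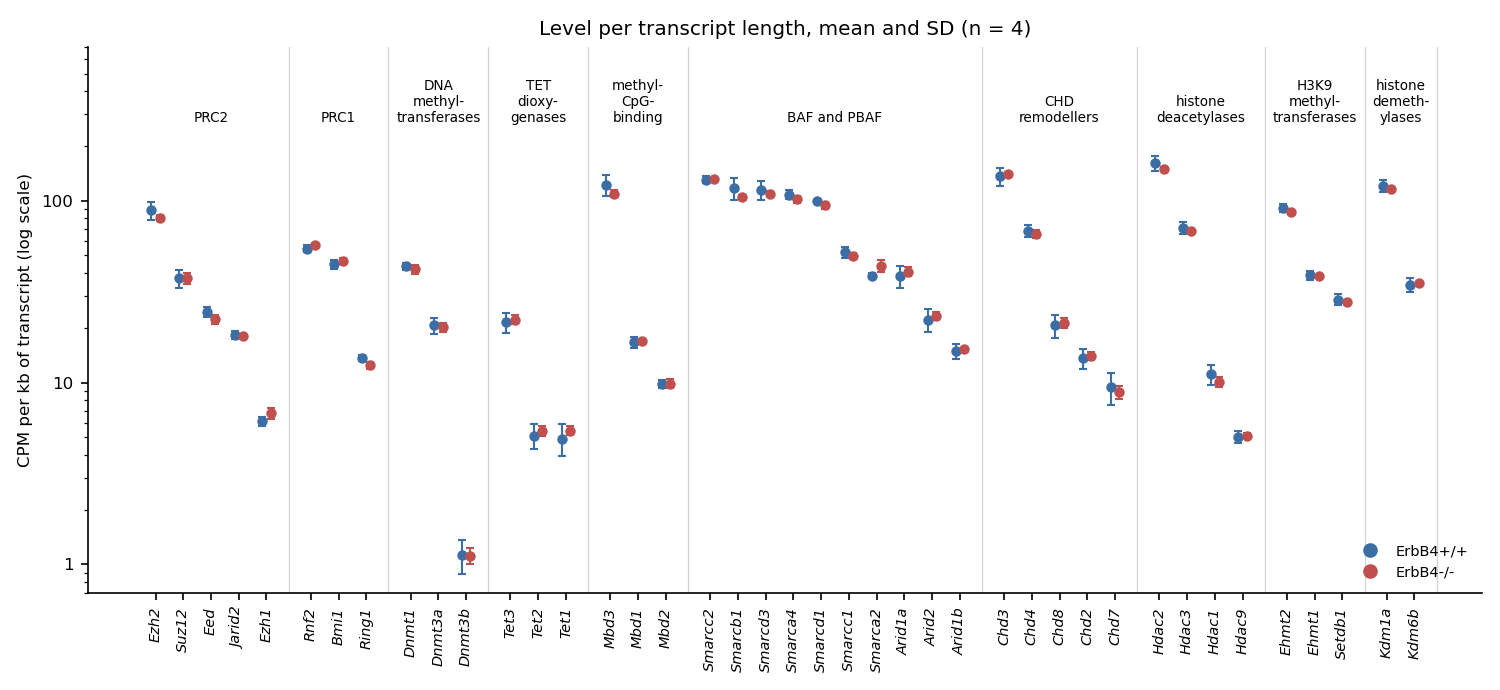
Level of each of the 41 genes per kilobase of transcript (log scale), grouped by complex and ordered within each, as mean and SD of the 4 ErbB4+/+ (blue) and the 4 ErbB4-/- (red) libraries. Hdac2, Chd3 and Smarcc2 stand highest and Dnmt3b lowest, and the points of both genotypes lie close together for every gene.

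Within PRC2, Ezh2, the main methyltransferase of dividing cells, was at 88.4 ± 10.2 CPM per kb and its paralogue Ezh1, which predominates in non-dividing cells, at 6.11 ± 0.376. The scaffold Suz12 was at 37.5 ± 4.23, Eed, which binds the methylated histone tail, at 24.5 ± 1.57, and the accessory subunit Jarid2 at 18.2 ± 0.968 CPM per kb. Among the PRC1 genes, the ubiquitin ligase Rnf2 (54.5 ± 2.44) and its partner Bmi1 (44.7 ± 2.53) exceeded the second ligase gene, Ring1 (13.6 ± 0.478 CPM per kb).

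Of the genes for DNA methylation, the maintenance enzyme Dnmt1 was at 43.6 ± 2.15 CPM per kb and the de novo enzyme Dnmt3a at 20.7 ± 2.11. Dnmt3a made up 94.9% ± 0.877 of the summed Dnmt3a and Dnmt3b level. Among the TET dioxygenases, which oxidize methylcytosine, Tet3 was at 21.4 ± 2.67 CPM per kb, and Tet2 (5.11 ± 0.810) and Tet1 (4.92 ± 0.982) did not differ from each other beyond their spread. Mbd3, the subunit of the deacetylase complex NuRD that does not require methylated DNA, was at 122 ± 16.2 CPM per kb, above Mbd1 (16.7 ± 1.15) and Mbd2 (9.83 ± 0.477), which do bind methylated CpG.

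In the BAF complexes, the ATPase Smarca4 was at 108 ± 6.06 CPM per kb and the alternative ATPase Smarca2 at 38.6 ± 1.23. The scaffold Smarcc2 (131 ± 5.78), the core subunit Smarcb1 (117 ± 15.8) and the subunits Smarcd3 (114 ± 13.5) and Smarcd1 (99.5 ± 1.65 CPM per kb) stood at a similar height. Smarcc1 was at 52.05 ± 3.37 CPM per kb, so that Smarcc2 made up 71.5% ± 1.08 of the pair. The large ARID subunits were lower per length, with Arid1a at 38.4 ± 5.28, Arid2, which marks PBAF, at 22.1 ± 3.15, and Arid1b at 14.9 ± 1.35 CPM per kb.

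The NuRD ATPase genes Chd3 and Chd4 were at 136 ± 15.6 and 68.4 ± 5.13 CPM per kb, above Chd8 (20.6 ± 2.97), Chd2 (13.6 ± 1.76) and Chd7 (9.44 ± 1.89), 3 genes that are mutated in neurodevelopmental disorders. Of the deacetylases, Hdac2 was followed by Hdac3, the enzyme of the NCoR corepressor complexes, at 71.005 ± 5.42 CPM per kb. Hdac1 was at 11.1 ± 1.43 and the class IIa gene Hdac9 at 5.03 ± 0.376 CPM per kb. Dividing the Hdac1 value by only those windows that are not found elsewhere gave 48.1 CPM per kb, a value that holds only if ambiguous reads were discarded. Ehmt2 (91.2 ± 4.13) and Ehmt1 (38.8 ± 2.34), partners in H3K9 dimethylation, were above Setdb1 (28.6 ± 2.02), which trimethylates H3K9. The H3K4 demethylase Kdm1a was at 121 ± 9.11 and the H3K27 demethylase Kdm6b at 34.4 ± 3.16 CPM per kb.

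None of the 41 genes changed between the genotypes by the adjusted test. With edgeR's quasi-likelihood test and Benjamini-Hochberg adjustment over all 14696 genes, 0 of 41 had an adjusted p under 0.05, where 0.0272% of all genes did (4 genes), and the smallest adjusted p was 0.810. DESeq2 and limma-voom also gave 0 of 41. At an unadjusted p under 0.05, edgeR, DESeq2 and limma-voom each listed 1 gene, Smarca2, against 5.53% of all genes in edgeR. In 2 genes, Ring1 and Smarcb1, every library labelled ErbB4-/- was below every ErbB4+/+ library, a share of 4.88% where 3.34% of all genes had groups that did not overlap in either direction. These shares of the 41 are near those of all genes.

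The fold changes of the 41 genes were small. On the log2 scale of ErbB4-/- over ErbB4+/+, 18 were above 0 and 23 below, with a median of -0.013, and of all genes 49.2% were above 0, with a median of -0.0022. They covered from -0.16 ± 0.082 (SE) for Mbd3 to 0.19 ± 0.062 (SE) for Smarca2. Thus 0 of 41 exceeded 0.2 in size, compared with 16.3% of all genes (2 of 41 and 14.95% without ErbB4+/+ replicate 1). The 95% intervals reached a median of 0.15 to either side. They held 0 for 40 of the 41 genes, the exception being Smarca2, and lay within ±0.3 for 31 genes and within ±0.4 for 40. The lowest bound was -0.37 (Chd7), the highest 0.42 (Tet1), and the widest interval was that of Dnmt3b, the gene with the fewest counts.

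**Figure D2:**
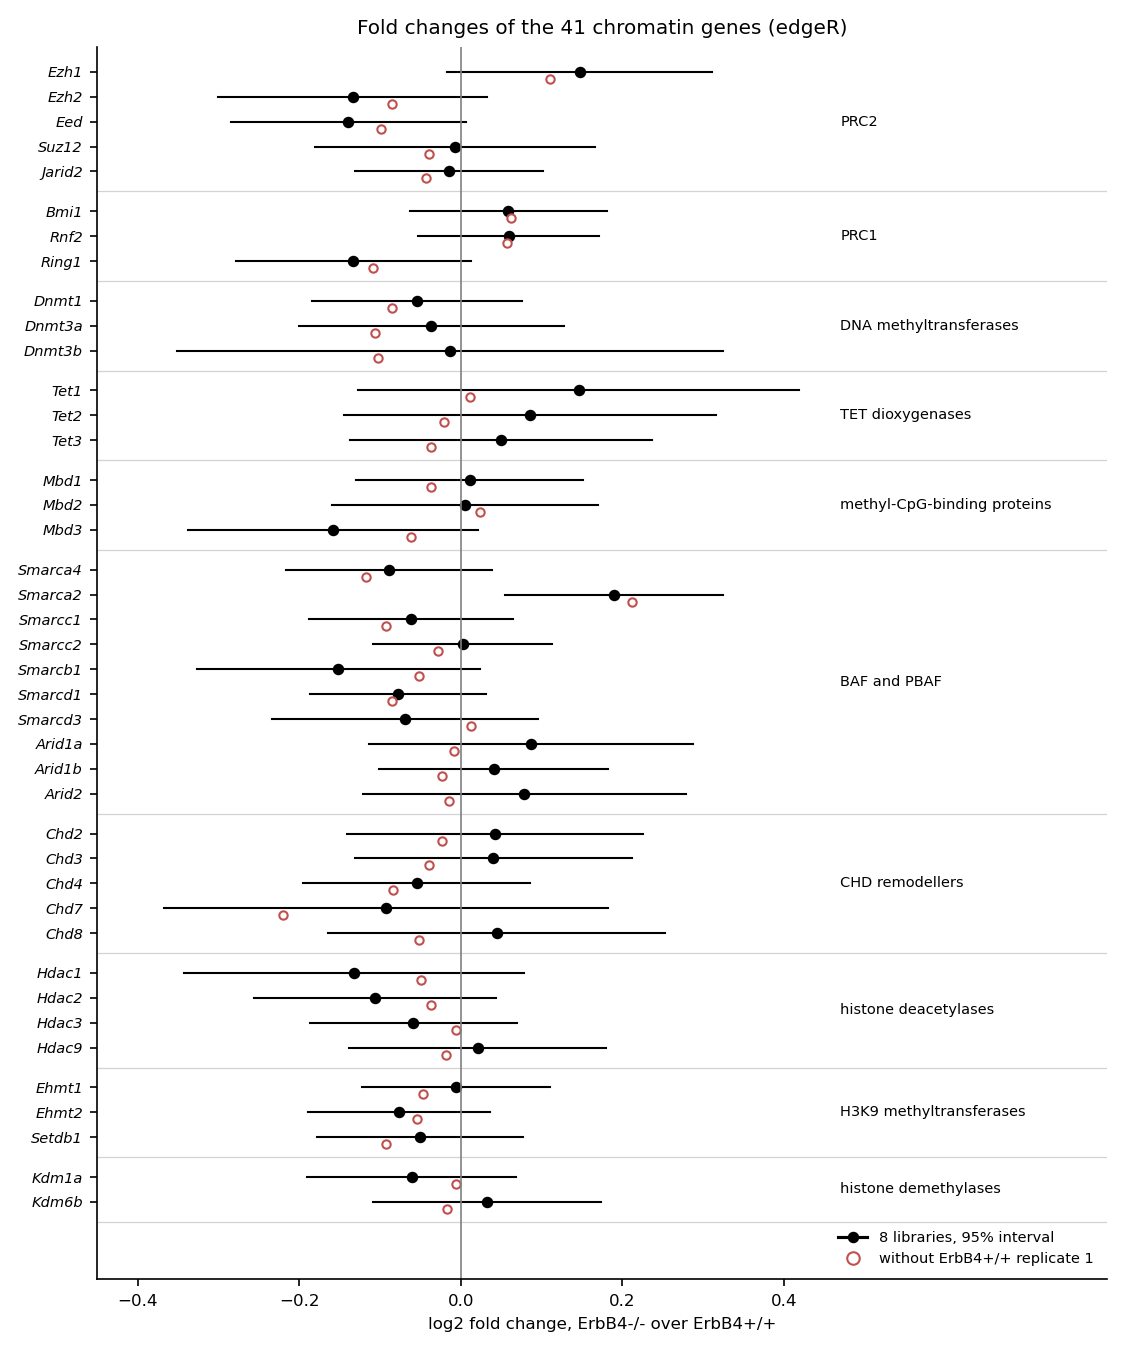
Log2 fold change of ErbB4-/- over ErbB4+/+ for the 41 genes by complex, with 95% intervals from the 8 libraries (black) and the estimate without ErbB4+/+ replicate 1 (open red circles). The interval of Smarca2 alone lies off 0, and 34 of the 41 open circles lie below 0.

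Smarca2 had the largest difference above 0. The gene lies at chr19:26679650-26852811 on the plus strand of mm9 and encodes Brm, one of the alternative ATPases of BAF. It stood at 239, 226, 226 and 222 CPM in ErbB4+/+ replicates 1 to 4 and at 268, 272, 269.8 and 229.9 CPM in the replicates labelled ErbB4-/-. Replicates 1 to 3 labelled ErbB4-/- were above all ErbB4+/+ libraries, while replicate 4 fell within them. The log2 fold change was 0.19 ± 0.062 (SE), with a 95% interval of 0.055 to 0.32, and it did not pass the adjusted test (edgeR adjusted p = 0.810) or the exact two-sided permutation test over the 70 assignments of the libraries (p = 0.0571, where the smallest p possible is 0.0286). Without replicate 4 labelled ErbB4-/-, it was 0.24 (edgeR adjusted p = 0.256). With the length trend of every library removed, it was 0.13 (edgeR adjusted p = 0.718), the lowest value over the 16 alternatives.

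Smarca4, the other BAF ATPase (Brg1), lies at chr9:21420613-21508674 on the plus strand. Its levels were 647, 673, 697 and 738 CPM in the ErbB4+/+ libraries and 629.6, 635, 629.7 and 695 CPM in those labelled ErbB4-/-. Here again replicates 1 to 3 labelled ErbB4-/- were outside the ErbB4+/+ range, below it, and replicate 4 was inside it. The log2 fold change was -0.089 ± 0.058 (SE) (edgeR adjusted p = 0.810, exact permutation p = 0.171), and -0.054 without ErbB4+/+ replicate 4. Smarca2 as a share of the summed Smarca2 and Smarca4 level per kb was 28.5%, 26.6%, 25.9% and 24.5% in ErbB4+/+ replicates 1 to 4 and 31.5%, 31.6%, 31.6% and 26.3% in the replicates labelled ErbB4-/-. The means were 26.4% ± 1.65 and 30.2% ± 2.64 (SD, n = 4), and the groups overlapped through replicate 4.

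**Figure D3:**
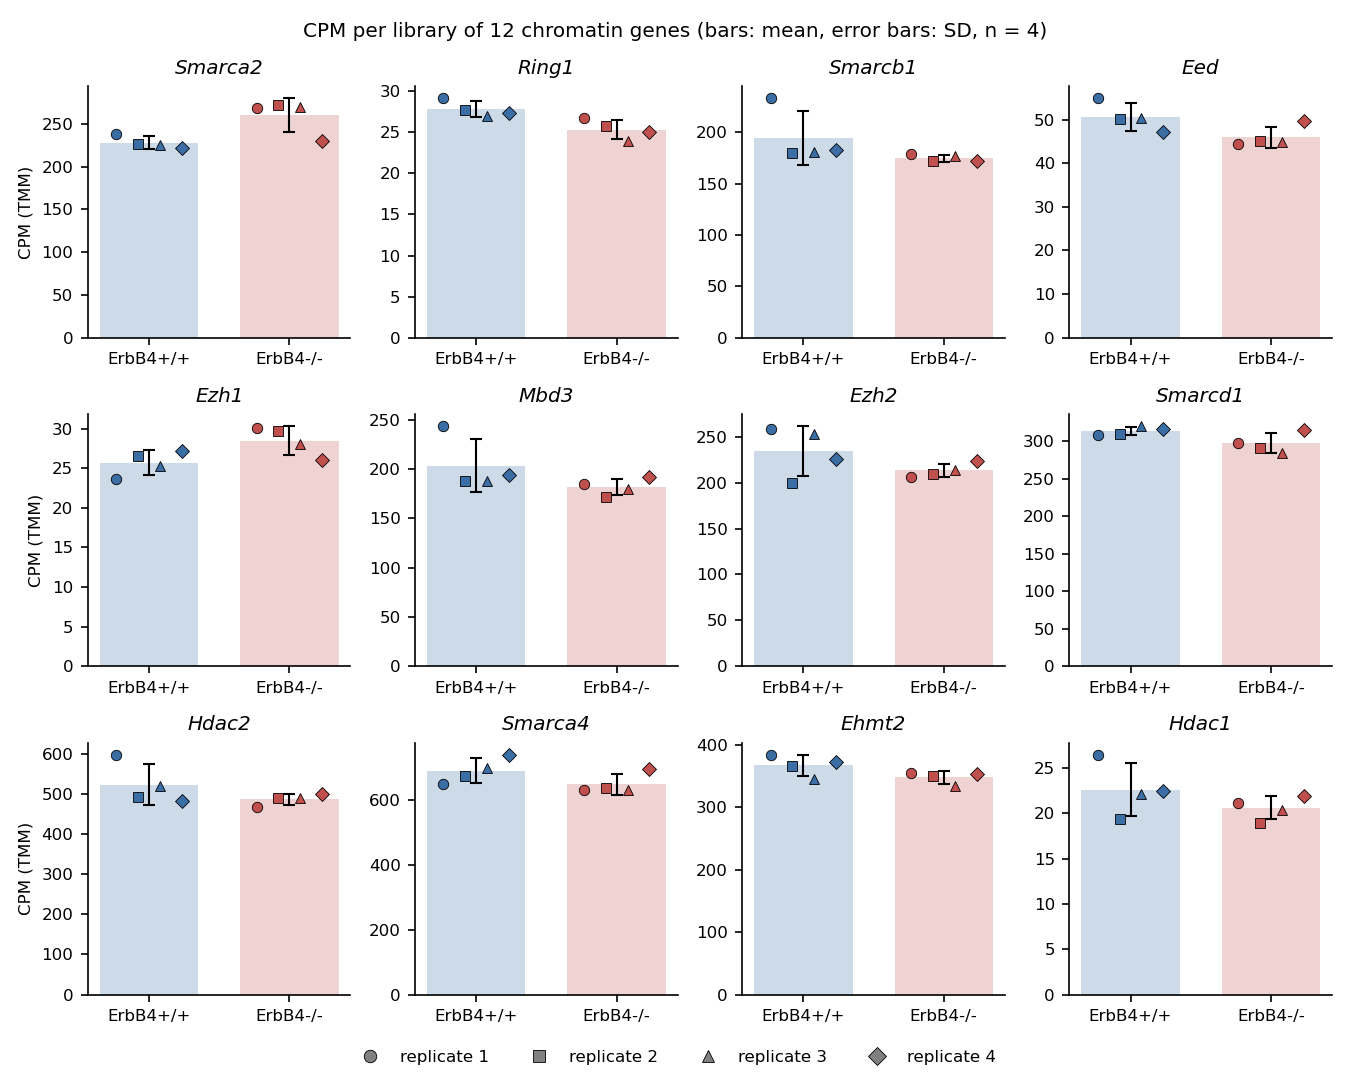
CPM in each library of the 12 genes with the smallest unadjusted p or groups that do not overlap, with the mean (bar) and SD (error bar, n = 4) of the 4 ErbB4+/+ (blue) and the 4 ErbB4-/- (red) libraries. Replicate 4 (diamond) labelled ErbB4-/- sits with the ErbB4+/+ libraries for Smarca2, Smarca4 and Eed, and ErbB4+/+ replicate 1 (circle) stands apart for Smarcb1, Mbd3 and Hdac2.

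Of the other BAF genes, Smarcb1 (chr10:75359514-75384362, minus strand), a core subunit of the canonical BAF and PBAF complexes, was at 234, 179.6, 181 and 183 CPM in ErbB4+/+ and at 179, 172, 177 and 172 CPM in the libraries labelled ErbB4-/-. The groups were apart, yet by no more than the step from 178.6 to 179.6 CPM, and ErbB4+/+ replicate 1 lay far above the other 3 of its group. The log2 fold change was -0.15 ± 0.080 (SE) with replicate 1 and -0.052 without it (edgeR adjusted p = 0.810 and 0.817, exact permutation p with all libraries = 0.0286). Smarcd1, which links the complex to transcription factors, was at 309, 310.1, 319.9 and 316 CPM against 298, 291, 284 and 316 CPM. Only replicate 4 labelled ErbB4-/- reached the ErbB4+/+ range (log2 fold change -0.078 ± 0.050 (SE), edgeR adjusted p = 0.810).

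The remaining BAF and PBAF subunits had fold changes between -0.069 (Smarcd3) and 0.087 (Arid1a) on the log2 scale, and their groups overlapped. Without ErbB4+/+ replicate 1 both turned, Smarcd3 to 0.012 and Arid1a to -0.0085. Smarcc1 covered 281 to 324 CPM in ErbB4+/+ and 279.9 to 303 CPM under the knockout label. Smarcc2 covered 604 to 670.3 and 636 to 664 CPM. The share of the neuron-enriched scaffold in the Smarcc2 and Smarcc1 pair was 71.5% ± 1.08 and 72.4% ± 0.823, and that of Smarcd3 in the Smarcd3 and Smarcd1 pair was 53.3% ± 3.14 and 53.6% ± 1.66 (SD, n = 4), each with overlapping groups. For Arid1a the ranges were 249.6 to 342 and 310.1 to 354 CPM, for Arid1b 145 to 178 and 169 to 177 CPM, and for Arid2 159 to 224 and 199.8 to 222 CPM. The lowest value of each ARID gene came from ErbB4+/+ replicate 1.

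Among the PRC2 genes, Ezh1 (chr11:101052429-101087777, minus strand) was at 23.6, 26.6, 25.3 and 27.2 CPM in ErbB4+/+ and at 30.03, 29.7, 28.1 and 26.05 CPM in the libraries labelled ErbB4-/-. Replicates 1 to 3 labelled ErbB4-/- exceeded every ErbB4+/+ library and replicate 4 did not. The log2 fold change was 0.15 ± 0.075 (SE) (edgeR adjusted p = 0.810, exact permutation p = 0.0857). Ezh2 (chr6:47480273-47545340, minus strand), whose promoter carries the E2F letters shown above, was at 258, 200.1, 253 and 226 CPM against 207, 209.8, 214 and 224 CPM. Its groups overlapped, as ErbB4+/+ replicate 2 was the lowest of all 8 libraries (log2 fold change -0.13 ± 0.076 (SE), edgeR adjusted p = 0.810). The value was -0.20 without that library (edgeR adjusted p = 0.525), where the groups did not overlap, and -0.085 without ErbB4+/+ replicate 1. Ezh1 made up 6.55% ± 1.04 of the Ezh1 and Ezh2 level per kb in ErbB4+/+ and 7.77% ± 0.693 under the knockout label (SD, n = 4), with overlapping groups.

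Eed was at 54.9, 50.2, 50.4 and 47.04 CPM in ErbB4+/+ and at 44.5, 45.01, 44.8 and 49.6 CPM in the libraries labelled ErbB4-/-. Again 3 replicates labelled ErbB4-/- were outside the ErbB4+/+ range and replicate 4 was inside it (log2 fold change -0.14 ± 0.066 (SE), edgeR adjusted p = 0.810, exact permutation p = 0.0571). Suz12 covered 148 to 189 and 154 to 178 CPM and Jarid2 103 to 115 and 107 to 109.9 CPM, with log2 fold changes of -0.0069 and -0.015. These became -0.039 and -0.044 without ErbB4+/+ replicate 1.

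In PRC1, Ring1 (chr17:34157737-34161625, minus strand) was at 29.1, 27.6, 26.9 and 27.4 CPM in ErbB4+/+ and at 26.7, 25.7, 23.9 and 24.97 CPM under the knockout label. The groups did not overlap, with a gap of 26.9 against 26.7 CPM between the nearest libraries. Its log2 fold change was -0.13 ± 0.067 (SE), which did not pass the adjusted test (edgeR adjusted p = 0.810, exact permutation p = 0.0286, the smallest possible). Rnf2, the other ligase gene, covered 157 to 175 and 167 to 179.7 CPM, and Bmi1 151 to 172 and 157 to 173 CPM, both with a log2 fold change of 0.059 and overlapping groups.

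For DNA methylation, Dnmt1 covered 214 to 241 CPM in ErbB4+/+ and 202 to 233 CPM under the knockout label, Dnmt3a 170.2 to 214 and 188 to 211 CPM, and Dnmt3b 3.89 to 6.29 and 4.12 to 5.08 CPM. All 3 log2 fold changes were below 0, at -0.054, -0.036 and -0.013, and smaller than their standard errors. They became -0.085, -0.11 and -0.10 without ErbB4+/+ replicate 1, larger than the standard error for Dnmt1 and Dnmt3a (edgeR adjusted p = 0.811 for each). The TET genes had log2 fold changes above 0 that shrank or turned without ErbB4+/+ replicate 1, from 0.15 to 0.012 for Tet1, from 0.086 to -0.021 for Tet2 and from 0.049 to -0.037 for Tet3. Tet1 was at 49.9, 78.1, 80.7 and 73.8 CPM in ErbB4+/+ replicates 1 to 4 and at 73.3, 78.2, 76.96 and 84.4 CPM in the replicates labelled ErbB4-/-, so that 1 low library set its mean apart.

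Mbd3 was at 243, 188, 188 and 194 CPM in ErbB4+/+ and at 184, 172, 179 and 192 CPM in the libraries labelled ErbB4-/-. Replicate 1 was again the library apart, high in this case, and the log2 fold change of -0.16 ± 0.082 (SE) became -0.061 without it (edgeR adjusted p = 0.810 and 0.822). Mbd1 covered 42.5 to 49.4 and 46.6 to 49.02 CPM and Mbd2 18.4 to 20.1 and 18.004 to 20.5 CPM, with log2 fold changes of 0.011 and 0.0053.

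The CHD remodellers overlapped between the groups. Chd3 covered 822 to 1075 CPM in ErbB4+/+ and 980.2 to 1056 CPM under the knockout label, and Chd4 428 to 496 and 411 to 463 CPM. Chd7, the gene of CHARGE syndrome, was at 69.7, 94.97, 112 and 109 CPM against 86.8, 85.2, 88.8 and 101 CPM. With its low ErbB4+/+ replicate 1 left out, 3 of the 4 libraries labelled ErbB4-/- were below the remaining ErbB4+/+ libraries, and the log2 fold change moved from -0.093 ± 0.13 (SE) to -0.22 (edgeR adjusted p = 0.870 and 0.759). Chd8 covered 134 to 189 and 158 to 183 CPM and Chd2 106 to 142 and 122 to 135 CPM, with log2 fold changes of 0.044 and 0.042.

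Among the deacetylases, Hdac2 was at 597, 493, 520.3 and 482.3 CPM in ErbB4+/+ and at 466.4, 489.5, 488 and 499 CPM in the libraries labelled ErbB4-/-. ErbB4+/+ replicate 1 was the highest library and the remaining ErbB4+/+ values overlapped the other group (log2 fold change -0.11 ± 0.068 (SE), edgeR adjusted p = 0.810, and -0.037 without that library). Hdac1, the gene with copies elsewhere in the genome, was at 26.4, 19.3, 22.2 and 22.4 CPM against 21.1, 18.96, 20.4 and 21.9 CPM (log2 fold change -0.13 ± 0.10 (SE), edgeR adjusted p = 0.810, and -0.050 without ErbB4+/+ replicate 1). Without ErbB4+/+ replicate 2 the Hdac1 value was -0.20 (edgeR adjusted p = 0.528), and its groups did not overlap. Hdac3 covered 134 to 158 and 135 to 139 CPM and Hdac9 24.9 to 29.7 and 26.3 to 28.5 CPM.

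Ehmt2, which encodes the H3K9 dimethylase G9a, was at 384, 366, 345 and 373 CPM in ErbB4+/+ and at 355, 350.2, 333 and 353 CPM under the knockout label. The groups overlapped through ErbB4+/+ replicate 3 (log2 fold change -0.077 ± 0.052 (SE), edgeR adjusted p = 0.810). Ehmt1 covered 181 to 207 and 194 to 201 CPM, Setdb1 121 to 142 and 125 to 131 CPM, Kdm1a 351 to 407 and 339.9 to 358 CPM and Kdm6b 205 to 252 and 230.0 to 238 CPM. The log2 fold changes of these 4 genes lay between -0.061 (Kdm1a) and 0.033 (Kdm6b), and their groups overlapped. Without ErbB4+/+ replicate 1 they lay between -0.093 (Setdb1) and -0.0059 (Kdm1a).

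ErbB4+/+ replicate 1 differed from the other libraries in a way that followed transcript length. It was the lowest of the 8 libraries in 20 of the 41 genes and the highest in 11. Among the 10 genes with a transcript shorter than 3000 nucleotides it was the highest library in 8, with a median difference of 0.23 on the log2 scale from the mean of the other 7 libraries. Among the 21 genes from 3000 to 8000 nucleotides the median difference was -0.078, and among the 10 longer genes replicate 1 was the lowest library in every case, with a median difference of -0.40. Across the 41 genes, Spearman's rho between this difference and length was -0.85, and across the 14448 tested genes with a length it was -0.59. The points share 1 library, so these values describe it and carry no test.

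**Figure D4:**
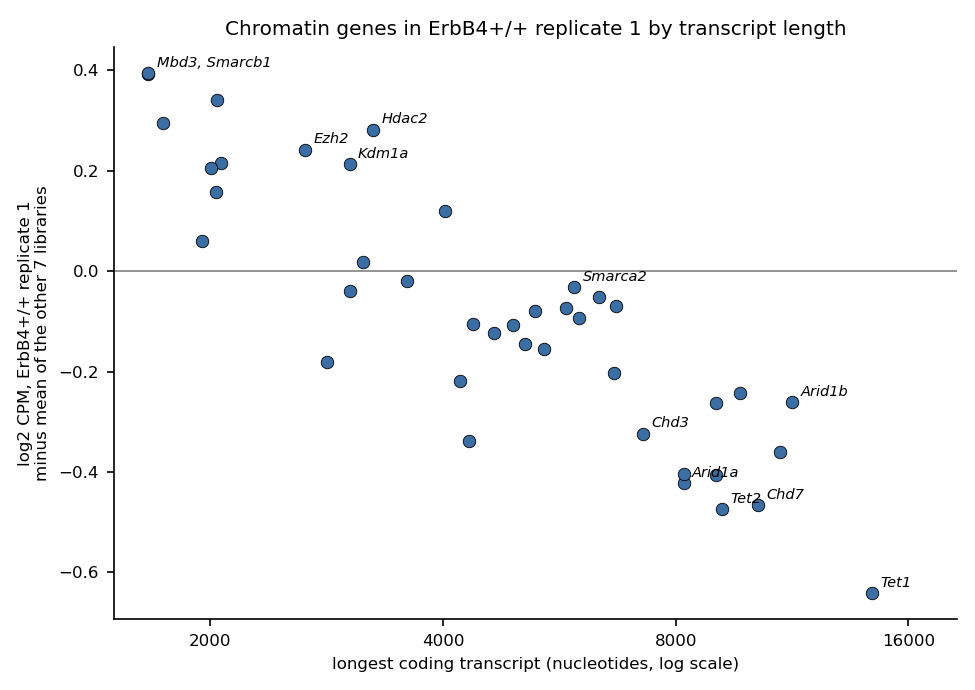
Log2 CPM of ErbB4+/+ replicate 1 minus the mean of the other 7 libraries for the 41 genes against the length of the longest coding transcript (log scale). Short genes such as Mbd3 and Smarcb1 lie above 0, and all 10 genes of at least 8000 nucleotides lie below it, Tet1 lowest.

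The direction of many of the 41 fold changes rested on that library. Without it, Arid1a, Arid1b, Arid2, Smarcc2, Chd2, Chd3, Chd8, Tet2, Tet3, Mbd1, Hdac9 and Kdm6b turned from above to below 0, and Smarcd3 from below to above it. In all, 7 genes were then above 0 and 34 below, with a median of -0.039, while 49.4% of all genes were above 0 with a median of -0.0013. The counts at an unadjusted p under 0.05 were then 4 of 41 (9.76%) and 5.93% of all genes, and 0 of 41 passed the adjusted test. The 4 genes were Smarca2 (log2 fold change 0.21), Chd7, Dnmt3a (-0.11) and Smarca4 (-0.12), with adjusted p-values from edgeR between 0.698 and 0.811. All 5 CHD genes, all 4 deacetylases and all 3 DNA methyltransferases were then below 0, each without passing the test. A fit with the length trend of every library removed gave 9 genes above 0 and 32 below.

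Replicate 4 labelled ErbB4-/- also stood apart in several of these genes, and in levels of cell type markers. For 33 of the 41 genes it was above the mean of the other 3 libraries of its label, with a median difference of 0.056 on the log2 scale (0.0016 over all genes). Its deviation from the other 7 libraries rose with transcript length across the 41 genes (Spearman's rho 0.61, with 0.045 to 0.52 for the other libraries beside ErbB4+/+ replicate 1, which is part of each such mean), and the part of length in its values was not tested. The summed level of 10 genes of cycling cells, such as Mki67 and Top2a, was 1260.2, 1127, 1464 and 1238 in ErbB4+/+ replicates 1 to 4 and 1089, 1080.5, 1098 and 1337 in the replicates labelled ErbB4-/- (CPM). The 9 radial glia genes summed to 2512, 1985, 2251 and 2188 in ErbB4+/+ replicates 1 to 4 and 2017, 1981, 2023 and 2171 in the replicates labelled ErbB4-/- (CPM). The 8 genes of postmitotic neurons summed to 7461, 7833, 7742 and 7659.5 in ErbB4+/+ replicates 1 to 4 and 8088, 8184, 8169.6 and 7751 in the replicates labelled ErbB4-/- (CPM). In all 3 lists, replicate 4 was the one labelled ErbB4-/- that was nearest to the ErbB4+/+ mean.

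Over the groups, the 10 cycling genes all had log2 fold changes below 0 (median -0.17), as did 8 of the 9 radial glia genes (median -0.19), while the 8 postmitotic genes were all above 0 (median 0.060). None of these marker genes passed the adjusted test in edgeR, where 2 of 10, 4 of 9 and 1 of 8, respectively, had an unadjusted p under 0.05, against 5.53% of all genes. Without ErbB4+/+ replicate 1, 10 of 10 and 7 of 9 were below and 6 of 8 above 0, with medians of -0.14, -0.12 and 0.058. Some smaller marker lists had medians as far from 0, at -0.14 for 4 intermediate progenitor genes (3 below 0), 0.24 for 4 astrocyte genes (2 above), 0.21 for 4 genes of the oligodendrocyte lineage (4 above, 1 of them with groups that did not overlap, against 3.34% of all genes) and -0.69 for 4 red blood cell genes (3 below). Without replicate 4 labelled ErbB4-/-, Smarca2 and Ezh1 were above, and Eed, Mbd3, Ring1, Smarca4, Smarcb1 and Smarcd1 below, every ErbB4+/+ library, 8 of 41 genes (19.5%) where 9.97% of all genes did not overlap. That library was singled out after the values of these genes were seen, so the count is a description and carries no test. The part of progenitor and neuron markers in these values was not tested. In bulk tissue, fewer cells of a type and less RNA per cell cannot be told apart.

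Markers of ganglionic eminence and interneurons, of meninges and of blood were also measured. The first list joins eminence with interneurons, so its sum cannot tell leftover eminence from interneurons within the cortex. The 8 ganglionic eminence and interneuron genes summed to 561 to 736 CPM in ErbB4+/+ and 538 to 732 CPM under the knockout label. The 5 expressed of 6 meningeal genes summed to 13.1 to 15.7 and 12.5 to 20.2 CPM. The 4 expressed of 9 red blood cell genes summed to 31.7 to 56.1 CPM and 20.7 to 34.8 CPM, with Hba-a1, Hba-a2 and Hbb-b2 at 0 counts in every library. The blood markers were thus lower under the knockout label in 3 of its 4 libraries, and their part in the values of the 41 genes was not tested.

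A wider list of chromatin genes from the same pathways gave the same count in the adjusted test. Of 139 genes written down, 137 were found in the table and 136 were tested, and 0 passed an adjusted p under 0.05 in edgeR, DESeq2 or limma-voom. An unadjusted p under 0.05 was found for 5 of 136 (3.68%), against 5.53% of all genes. Of the 136, 75 were above 0 and 61 below, with a median log2 fold change of 0.012, which became 36 and 100 with a median of -0.026 without ErbB4+/+ replicate 1. By group, the genes above 0 were 7 of 21 other Polycomb genes, 4 of 7 other DNA methylation genes, 5 of 16 other BAF genes, 12 of 18 other remodeller and NuRD genes, 11 of 18 other deacetylase and corepressor genes, 16 of 24 other histone methyltransferases, 12 of 18 other histone demethylases and 8 of 14 acetyltransferase and BET genes, where 49.2% of all genes were above 0. Without ErbB4+/+ replicate 1 the same counts were 8, 3, 4, 4, 5, 2, 7 and 3. With all libraries, 0 of the 136 had groups that did not overlap, where 3.34% of all genes did.

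The smallest unadjusted p-values in the wider list belonged to the X-linked histone demethylases Kdm6a and Kdm5c, which act on H3K27 and H3K4 and are transcribed from both X chromosomes in females. Kdm6a was at 58.03, 74.8, 81.6 and 54.3 CPM in ErbB4+/+ replicates 1 to 4 and at 46.1, 54.5, 49.9 and 56.2 CPM in the replicates labelled ErbB4-/-. Kdm5c was at 155, 187, 196 and 149.7 and at 136, 145, 135 and 154 CPM. For both genes the Xist-positive replicates 2 and 3 were the highest, and ErbB4+/+ replicate 4, the library matched in sex, lay within the range of the libraries labelled ErbB4-/-. The log2 fold changes were -0.38 ± 0.12 (SE) and -0.27 ± 0.088 (SE) (edgeR adjusted p = 0.810 for each), and they became -0.073 and -0.072 with sex as a term.

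Their Y-linked partners gave the opposite picture. Kdm5d was at 0.178, 0.385, 0.182 and 45.3 CPM in ErbB4+/+ and at 44.9, 42.1, 45.8 and 47.97 CPM in the libraries labelled ErbB4-/-, and Uty at 0.178, 0.225, 0.156 and 33.9 and 31.4, 34.96, 36.8 and 33.6 CPM. ErbB4+/+ replicate 4 was at the level of the other group in both, and replicates 1 to 3 were near 0. Under the sex term, in which the comparison rests on that 1 ErbB4+/+ library against 4, the 41 genes had 11 fold changes above 0 and 30 below, and 0 had an unadjusted p under 0.05, where 1.80% of all genes did. Smarca2 then had a log2 fold change of 0.23 and Smarca4 of -0.19. Other genes moved towards 0, Eed to -0.034, Ezh1 to 0.064, Smarcb1 to -0.067, Ezh2 to -0.079 and Mbd3 to -0.092, with edgeR adjusted p = 1.00 for each of these genes.

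**Figure D5:**
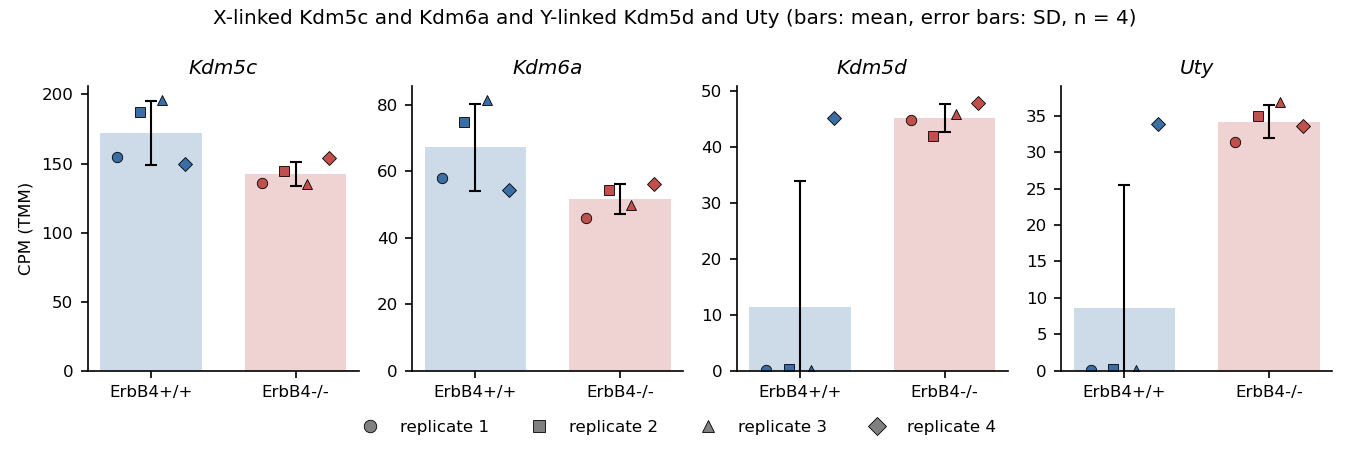
CPM of the X-linked demethylase genes Kdm5c and Kdm6a and of their Y-linked partners Kdm5d and Uty in each library, with the mean (bar) and SD (error bar, n = 4) of ErbB4+/+ (blue) and ErbB4-/- (red). ErbB4+/+ replicate 4 (diamond) lies with the libraries labelled ErbB4-/- in all 4 genes.

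The next genes of the wider list were autosomal and lower under the knockout label, none past the adjusted test. Rcor2, a CoREST subunit that works with Kdm1a, was at 255.8, 216, 216 and 232 CPM against 195, 192, 196 and 222 CPM (log2 fold change -0.19 ± 0.069 (SE)). Actl6a, the BAF subunit of progenitors, was at 101, 86.9, 101 and 92.5 CPM against 81.7, 80.02, 82.5 and 92.9 CPM (log2 fold change -0.18 ± 0.070 (SE)). In both genes replicates 1 to 3 labelled ErbB4-/- were below every ErbB4+/+ library and replicate 4 was within their range, as for Smarca4. For the deacetylase gene Sirt6 the difference on the log2 scale came to -0.15 ± 0.063 (SE), and for Uhrf1, which guides Dnmt1 to replicating DNA, to -0.17 ± 0.078 (SE). The edgeR adjusted p was 0.810 for each of these 4 genes.

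Further genes of the wider list were looked up for their roles after their values were seen. Actl6b and Dpf1, the BAF subunits of neurons, covered 130.5 to 160.4 and 169 to 196 CPM in ErbB4+/+ and 137 to 153 and 171 to 190.1 CPM under the knockout label, with log2 fold changes of -0.0038 and 0.014. These became 0.046 and 0.064 without ErbB4+/+ replicate 1. Ncor1 and Tab2, whose proteins form a repressor complex with the released intracellular domain of ErbB4, covered 249.6 to 371 and 131 to 144 CPM in ErbB4+/+ and 333 to 370.0 and 136 to 143 CPM in the other group. Their log2 fold changes were 0.067 ± 0.11 (SE) and 0.010 ± 0.050 (SE), and became -0.049 and -0.018 without ErbB4+/+ replicate 1. Their groups overlapped.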

How the data were processed

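RNA was measured in 8 libraries of dorsal cortex, 4 labelled ErbB4+/+ and 4 labelled ErbB4-/-, grouped by the genotype in the labels. The authors removed meninges and ganglionic eminences, prepared non-strand-specific polyA-selected libraries, sequenced single-end reads of 50 nucleotides, aligned them with HISAT to mm9 and obtained counts per gene from HTSeq-count; their versions, the annotation and the treatment of reads with several matches are not given in the sources used here. The deposited files hold raw counts, whole numbers for 23284 gene symbols in the same order in each library, with totals of 28205703 to 48871480. A deposited DESeq2 table of the authors' own comparison (fold changes and p-values) was not used here. The libraries do not keep the strand, so reads of overlapping antisense genes cannot be told apart.

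Counts were normalized by TMM and tested in edgeR 4.0.16 (R 4.3.3) with filterByExpr (minimum count 10, minimum total 15), glmQLFit and glmQLFTest, and Benjamini-Hochberg adjustment over 14696 genes at 0.05. Log2 values per library carry a prior count of 2. Single values were tested by an exact two-sided permutation test over the 70 assignments of the libraries. No libraries were duplicates, as the smallest chi-square per degree of freedom between any pair was 5.43. Positions and lengths came from GENCODE vM1 on NCBIM37 (mm9), and promoters from RefSeq on GRCm38.p6. The steps were tested on simulated data.

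Values per library are given for genes with an unadjusted p under 0.05 or groups that do not overlap, filled up to 12 by unadjusted p; of the wider list, the 6 smallest p-values and Kdm5c, Kdm5d, Kdm6a and Uty are named, and Erbb4, Xist and Ddx3y are checks. Tet1 and Chd7 were added after their values were seen. The 41 genes, the wider list and the marker lists were chosen with earlier results of these data known. The alternatives were DESeq2 1.42.0, limma-voom (limma 3.58.1), RLE factors, the replicate number as a block, the filter either left out or set to a mean of 50 counts, a sex term, removal of each library's length trend, and each library left out in turn. Figures were drawn with matplotlib 3.10.9.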

Additional observations from a re-analysis of the deposited data

Results flagged for a closer look

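Each of the 41 genes was examined in both groups of 4 libraries for a library far from the other 3, with a gap to the nearest of them, as a share of the group's range, above Dixon's 95% critical value. Of 82 groups, 13 had such a library, where chance gives about 1 in 20 groups, or 4.1 of 82, and neighbouring genes in this count share the same libraries. ErbB4+/+ replicate 1 was the library apart in 6 of the 13. It was high in Mbd3 (243 CPM, nearest 194), Smarcb1 (234 CPM, nearest 183) and Kdm1a (407 CPM, nearest 353), and low in Tet3 (191 CPM, nearest 243), Arid1a (249.6 CPM, nearest 332) and Arid1b (145 CPM, nearest 174). Replicate 4 labelled ErbB4-/- was high in Eed (49.6 CPM, nearest 45.01), Dnmt3a (211 CPM, nearest 192), Smarca4 (695 CPM, nearest 635) and Chd2 (135 CPM, nearest 124), and low in Smarca2 (229.95 CPM, nearest 268). The other 2 were Dnmt3b in replicate 1 labelled ErbB4-/- (4.12 CPM, nearest 4.998), at the lowest level of the 41 genes, and Smarcc2 in replicate 2 labelled ErbB4-/- (664 CPM, nearest 641).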

How the results depend on the processing

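None of the 41 genes passed the adjusted test under any of the 16 alternatives, and their median log2 fold change moved by less than the spread between libraries (0.050) under each. The 12 genes given per library were chosen by unadjusted p or by groups that did not overlap in these same data. The genes named above that turned without ErbB4+/+ replicate 1 all lie outside them. Of the 12, 11 kept the sign of the fold change in all 16 alternatives. The exception was Hdac2, at 0.011 with a sex term (edgeR adjusted p = 1.00, against a range of 0.544 to 1.00 over its alternatives). The number of all genes past the threshold was 4, and it was 23 with DESeq2, 1 with RLE factors, 1 with a sex term and 2 with the length trend removed. It covered 1 to 13 when each library was left out in turn, and the 13 came without ErbB4+/+ replicate 4. Leaving out ErbB4+/+ replicate 2 or 3, or any of the ErbB4-/- replicates, gave 1 or 2 genes. The number of the 41 genes with an unadjusted p under 0.05 was 1, and it was 0 with a sex term (1.80% of all genes) and 4 with the length trend removed (Chd7, Dnmt3a, Smarca4 and Smarcc1, with 7.05% of all genes). It covered 1 to 4 with a library left out, at 4 when ErbB4+/+ replicate 1 was dropped (5.93% of all genes), 3 when either ErbB4+/+ replicate 2 (9.40%) or the last ErbB4-/- library (7.73%) was, and 2 when ErbB4+/+ replicate 4 was (4.95%). Of the 41 genes, 2 had groups that did not overlap (3.34% of all genes), against 1 with no filter (Ring1, with 2.87%) and 0 with the length trend removed (3.32%), and 2 to 8 with a library left out, a change that follows in part from the smaller groups, as 9.97% of all genes then did not overlap at the highest count. Of the wider list, 0 genes passed the threshold, and 0 to 2 did with a library left out, the 2 being Kdm5d and Uty without ErbB4+/+ replicate 4. The causes of these changes were not tested. Depth limits Dnmt3b most, with 109 counts in its shallowest library.

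The replicate numbers are shared by the groups but do not pair the samples, with correlations of same-numbered deviations of 0.084, 0.13, 0.048 and 0.024. With the replicate block, 1 gene passed the threshold in place of 4, and 0 of the 41 genes did. Libraries correlated best with their own number in 2 of 4 cases.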
